A study of Mus musculus with 4 samples.

Results

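A set of 10 genes of histone H3 lysine 9 (H3K9) methylation and heterochromatin was followed in mouse embryonic stem cells (ESCs) with and without Naa10, the catalytic subunit of the NatA N-terminal acetyltransferase. They were chosen by name: Ehmt1, Ehmt2, Suv39h1 and Suv39h2 encode methyltransferases, Atf7ip a methyltransferase cofactor, Cbx1, Cbx3 and Cbx5 the readers of the HP1 family, Hells a chromatin remodeller, and Morc3 a MORC ATPase. The 10 genes were found in 11 of the 14099 named rows of each table, because Suv39h1 had 2 rows. Ehmt1 shared its row with its neighbour Arrdc1, so the level of Ehmt1 alone cannot be separated. All 11 rows passed the filter on low values, and 10 of them were above 0 in every library.

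The groups were 2 libraries labelled WT and 2 labelled Naa10-KO. All 4 came from ESCs of C57BL6/JF1 F1 background, derived from the inner cell mass of blastocysts after C57BL/6 females carrying 1 Naa10 knockout allele were mated with wild-type JF1 males. WT lines were littermates of the knockout lines. Both genotypes were grown in serum-free medium with LIF, a Mek inhibitor and a Gsk3 inhibitor, first for 5 passages on irradiated feeder fibroblasts and then for 5 without them. The sample titles call the libraries biological replicates 1 and 2 of each genotype. Naa10 is X-linked, so a full knockout line from this cross received no paternal X chromosome, as is the case in a male. The Y-linked genes Ddx3y, Eif2s3y and Uty, given below, were each under 1 RPKM in all 4 libraries and lower in Naa10-KO. The sex of the lines was not tested. The cross leaves the sex of the WT lines open, and the sources used here do not state the sex of any line. They also do not give the deleted part of Naa10 or how many lines stand behind each genotype. Whether the replicates are separate lines is therefore not known, and p-values cover only the spread between these libraries. Values are RPKM, read counts scaled to transcript length and to the size of the library, which allow levels of different genes to be compared per length.

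H3K9 methylation marks silent chromatin. Ehmt1 (GLP) and Ehmt2 (G9a) work as a heterodimer that writes mono- and dimethylation in euchromatin, Suv39h1 and Suv39h2 write trimethylation at pericentromeric repeats, and Setdb1, with its cofactor Atf7ip, writes trimethylation at retrotransposons and some imprinted loci. HP1 proteins bind methylated H3K9 through a chromodomain. Hells (LSH) opens nucleosomal DNA to DNA methylation, and in ESCs the H3K9 writers hold endogenous retroviruses and germline genes silent. The study is titled for DNA methylation and imprinting, and these genes act beside the DNA methyltransferases in that silencing.

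None of the 11 rows passed the threshold between Naa10-KO and WT, a limma adjusted p under 0.05 over the 11912 tested rows, which 0.764% of all tested rows passed (0.218% higher and 0.546% lower in Naa10-KO). The smallest absolute log2 difference among the rows that passed was 0.72, larger than that of any member without a 0, so no row with a difference of the members' size passed with these 4 libraries. Atf7ip was the member with the smallest adjusted p (0.101), and it was about 1.40 times as high in Naa10-KO. Morc3, Hells, Cbx3 and Cbx1 had Naa10-KO means at 73.4%, 75.8%, 78.8% and 81.7% of WT. Each of them lay lower in both Naa10-KO libraries than in either WT library, as did Cbx5 (91.5% of WT). Over all tested rows, 34.9% did so. Levels of the Ehmt and Suv39h genes were between 97.6% and 109% of WT, leaving aside the Suv39h1 row that was listed at 0 in a library. With Naa10-KO replicate 1 left out, 6 members passed the threshold, as did 4938 of all rows, and with replicate 2 left out 4 members and 7081 of all rows did, since the remaining fit takes its spread from the close WT pair. In bulk RNA, fewer cells that express a gene and less RNA per cell cannot be told apart.

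The libraries set the scale for reading these values. Relative depth, read from the steps between low values of small RNA rows, set to 1 in WT replicate 1, came to 1.02 in the other WT library and to 1.46 and 1.68 in Naa10-KO replicates 1 and 2, and the absolute depth is not known. The joined row of Naa10 and Renbp had 105 and 106 RPKM in the WT libraries and 28.9 and 34.4 RPKM in the Naa10-KO libraries (log2 change -1.71, limma adjusted p = 0.0342). With rows at 0 and small RNA rows left out, neither this row nor any other passed (smallest limma adjusted p 0.0593, 2625 rows at an unadjusted p under 0.05). Replicates agreed less well in Naa10-KO, with a median absolute log2 difference of 0.25 over tested rows between the Naa10-KO libraries and 0.05 between the WT libraries. All 8 ESC markers examined (Pou5f1, Nanog, Sox2, Zfp42, Esrrb, Klf4, Tdgf1 and Dppa5a, the last in a row joined with Ooep) were at 30.7 RPKM or more in every library. Over them, Naa10-KO replicates 1 and 2 differed from WT by medians of -0.38 and 0.25 on the log2 scale. Pou5f1 and Tdgf1 lay above WT in both Naa10-KO libraries (log2 differences 0.22 and 0.29) and the row of Dppa5a below (-0.45). The remaining ESC markers did not lie on 1 side of WT in both. The 12 fibroblast markers examined summed to 121 and 127 RPKM in WT, to 339 RPKM in Naa10-KO replicate 1 and to 81.9 RPKM in Naa10-KO replicate 2, none of them at 0. The markers did not all move alike. Acta2 (132 RPKM) and Thy1 (58.7 RPKM) were the largest in Naa10-KO replicate 1, where Pdgfrb and Lum were slightly below both WT libraries. In replicate 2, S100a4 (10.9 RPKM) was above both WT libraries. The 7 primitive endoderm markers summed to between 14.8 and 20.1 RPKM in all 4 libraries. Most of that sum was Lama1, which was below WT in both Naa10-KO libraries (9.58 and 12.8 RPKM). Sox7 was above WT in both (1.73 and 3.83 RPKM), as were Gata6 and Foxa2, each under 1 RPKM in every library. Gata4, Sox17 and Pdgfra did not lie on 1 side of WT in both. The 6 neuroectoderm and mesoderm markers with a row summed to 11.7 and 12.4 RPKM in WT. Their sums in Naa10-KO replicates 1 and 2 were 35.7 and 15.2 RPKM, and none was at 0. T stood at 1.178 and 1.04 RPKM in WT. Both Naa10-KO libraries were above that, at 9.185 and 4.533 RPKM. The log2 difference of T was 1.83, and its row did not pass the threshold. Pax6, Eomes and Mixl1 also lay above WT in both Naa10-KO libraries, with Mixl1 under 1 RPKM in every library. Nes and Sox1 were above WT in replicate 1 and below it in replicate 2.

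**Figure D1:**
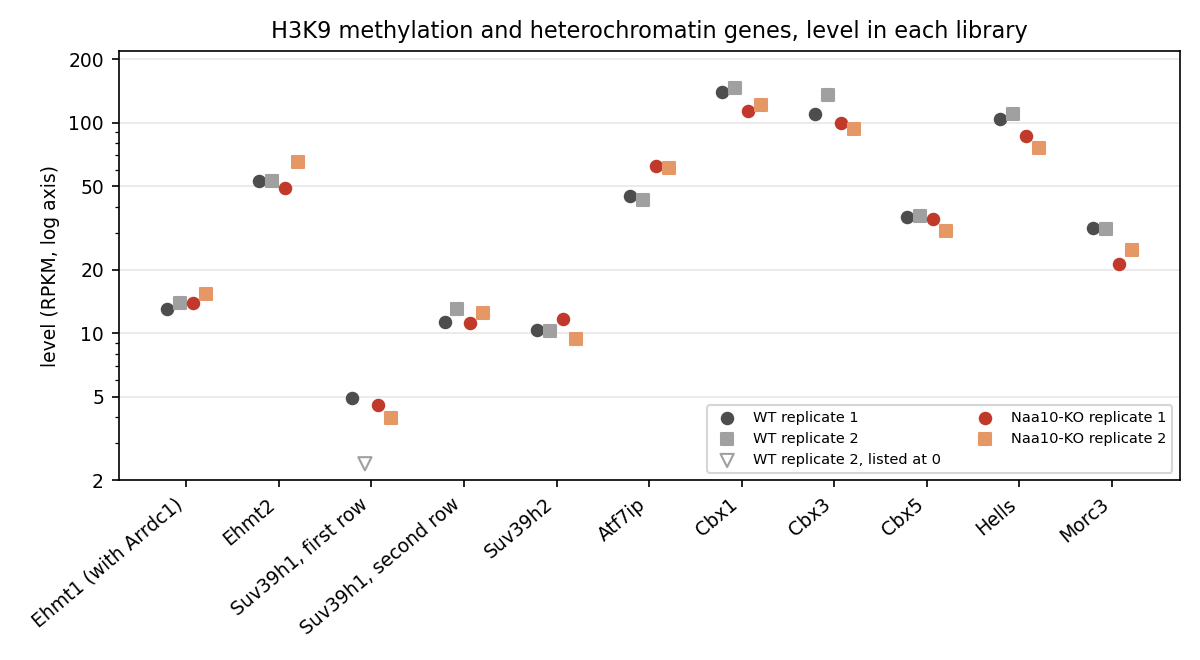
Level of each row in each library, in RPKM on a log axis, with WT in greys and Naa10-KO in reds; circles are replicate 1 and squares replicate 2, and the open triangle marks a row listed at 0. Cbx1, Cbx3 and Hells stood highest in both groups, Atf7ip was higher in both Naa10-KO libraries, and Morc3 lower.

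Promoters are shown for the 4 members with an unadjusted limma p under 0.05: Atf7ip, which was higher in Naa10-KO, and Hells, Morc3 and Cbx1, which were lower. Each line gives the 250 bases before the first start site listed for the gene by RefSeq (build GRCm38.p6, which differs from the mm9 build of the deposited values), read 5′ to 3′ on the gene's strand, here the plus strand in each case. The windows are chr6:136518601-136518850 for Atf7ip, chr19:38930740-38930989 for Hells, chr16:93831871-93832120 for Morc3 and chr11:96788885-96789134 for Cbx1. Capitals mark exact matches, on either strand, to 7 motifs: E2F (TTTCCCGC, TTTGGCGC, TTTCGCGC or TTTGCCGC), the octamer bound by POU factors (ATTTGCAT), NRF1 (GCGC, any base, then TGCGC), the cAMP response element (TGACGTCA), the E-box (CACGTG), the CCAAT box and the GC box (GGGCGG).
Atf7ip: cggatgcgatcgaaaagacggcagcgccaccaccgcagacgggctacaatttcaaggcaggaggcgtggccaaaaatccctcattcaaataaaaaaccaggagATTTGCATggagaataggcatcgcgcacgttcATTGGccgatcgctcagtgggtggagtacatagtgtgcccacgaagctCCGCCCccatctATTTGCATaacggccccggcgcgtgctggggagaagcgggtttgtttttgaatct
Hells: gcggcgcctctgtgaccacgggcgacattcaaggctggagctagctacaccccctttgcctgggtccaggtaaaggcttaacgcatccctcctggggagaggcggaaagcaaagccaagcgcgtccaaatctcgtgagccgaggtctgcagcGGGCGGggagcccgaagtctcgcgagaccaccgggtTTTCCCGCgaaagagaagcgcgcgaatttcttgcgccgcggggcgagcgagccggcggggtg
Morc3: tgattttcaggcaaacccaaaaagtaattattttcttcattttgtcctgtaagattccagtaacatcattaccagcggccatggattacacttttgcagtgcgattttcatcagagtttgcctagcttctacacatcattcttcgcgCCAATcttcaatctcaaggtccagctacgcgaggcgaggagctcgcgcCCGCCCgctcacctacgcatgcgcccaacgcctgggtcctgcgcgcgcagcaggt
Cbx1: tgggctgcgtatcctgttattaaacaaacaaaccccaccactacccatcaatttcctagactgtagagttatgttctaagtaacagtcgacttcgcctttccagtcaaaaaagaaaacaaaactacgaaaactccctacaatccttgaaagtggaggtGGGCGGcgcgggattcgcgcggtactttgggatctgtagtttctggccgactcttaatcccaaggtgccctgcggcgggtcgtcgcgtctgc

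The Atf7ip window held 2 octamers, a sequence bound by Oct4 (Pou5f1) and its relatives, ending 140 and 48 bases before the start. Of 27025 promoter windows of the same length, 1.61% held an octamer and 0.115% held 2 or more. Hells held an E2F match (TTTCCCGC), a sequence found in promoters of S-phase genes, ending 55 bases before the start, and Cbx3 held another E2F match; 1.91% of all windows had one. GC boxes were present in all 10 members and in 32.9% of all windows, and CCAAT boxes in 4 members, Atf7ip and Morc3 among them, and in 34.5% of all windows. The E-box was in Cbx5 and Ehmt2 (6.05% of all windows) and the cAMP response element in Suv39h2 (1.62%). The GC content of the members' windows ran from 49.6% for Cbx1 to 73.2% for Cbx3, against a median of 52.0% over all windows. NRF1 matches were in 4 members (Ehmt1, Suv39h1, Suv39h2 and Cbx5) and in 3.86% of all windows, and none of these 4 members had an unadjusted p under 0.05. Matches describe the letters only, and binding was not measured.

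By the same annotation the members lie on chromosomes 2 (Ehmt1 and Suv39h2), 6 (Cbx3 and Atf7ip), 11 (Cbx1), 15 (Cbx5), 16 (Morc3), 17 (Ehmt2), 19 (Hells) and X (Suv39h1). The spans of Cbx1, Atf7ip and Morc3 each overlap that of another annotated gene (Gm11517, LOC108169175 and Gm30881), and that of Suv39h2 overlaps Dclre1c, a DNA repair nuclease gene. Whether reads of each strand were told apart is not stated, so these 4 values are uncertain to that extent.

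Ehmt2 was the most abundant of the methyltransferase genes. It had 53.2 and 52.7 RPKM in the WT libraries, 49.0 RPKM in Naa10-KO replicate 1 and 65.0 RPKM in Naa10-KO replicate 2. The Naa10-KO libraries thus lay on opposite sides of WT, and the log2 difference was 0.09 (95% interval -0.35 to 0.53, limma adjusted p = 0.748). It was -0.11 for Naa10-KO replicate 1 against the WT mean and 0.29 for replicate 2. Of all tested rows, 25.3% had the Naa10-KO libraries on opposite sides in this way.

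The row of Ehmt1, the partner of Ehmt2, joined with the arrestin-domain gene Arrdc1, had 13.06 and 13.91 RPKM in the WT pair against 13.92 and 15.4 RPKM in the Naa10-KO pair. Both Naa10-KO values were above both WT values, but the lower of them exceeded the higher WT value by less than the WT libraries differed from each other. The log2 difference was 0.11 (95% interval -0.18 to 0.40, limma adjusted p = 0.552). Per length, the joined row was lower than Ehmt2 in every library, with log2 ratios from -2.01 to -1.75.

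Suv39h1 was listed in a pair of rows with no note of which transcripts each holds. The second row, the higher one, had 11.3 and 13.0 RPKM in the WT pair against 11.2 and 12.5 RPKM in the Naa10-KO pair (log2 difference -0.03, 95% interval -0.38 to 0.31, limma adjusted p = 0.896). The first row had 4.95 RPKM in WT replicate 1, was listed at 0 in WT replicate 2, and had 4.56 and 3.94 RPKM in Naa10-KO. No fold is read from that row, because a value of exactly 0 can be a failed estimate. Added together, the rows came to 16.3 and 13.0 RPKM in WT and to 15.8 and 16.5 RPKM in Naa10-KO, so that 1 Naa10-KO sum lay between the WT sums and the other above both.

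Suv39h1 is the one member on the X chromosome, which also carries Naa10. The 385 tested rows of that chromosome had a median log2 difference of 0.12, with 0.00015 in Naa10-KO replicate 1 and 0.25 in replicate 2, while the 10830 autosomal rows had -0.06. Xist and the Y-linked genes Ddx3y, Eif2s3y and Uty were each under 1 RPKM in all 4 libraries. At these low levels each of the Y-linked genes was lower in both Naa10-KO libraries than in either WT library. For Eif2s3y the WT libraries stood at 0.48 and 0.70 RPKM. Naa10-KO replicates 1 and 2 stood at 0.08 and 0.02 RPKM. These rows were below the filter, so their differences were not tested. How far the shifts of the X-linked rows bear on Suv39h1 was not tested.

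Suv39h2, the paralogue expressed most in germ cells and early embryos, had 10.3 and 10.2 RPKM in WT, 11.6 RPKM in Naa10-KO replicate 1 and 9.39 RPKM in Naa10-KO replicate 2. Here too the Naa10-KO libraries lay on either side of WT, with a log2 difference of 0.02 (95% interval -0.36 to 0.40, limma adjusted p = 0.928).

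Atf7ip encodes the partner that stabilises Setdb1 and keeps it in the nucleus. It had 45.1 and 42.8 RPKM in the WT pair against 62.0 and 61.2 RPKM in the Naa10-KO pair, or 44.0 ± 1.61 against 61.6 ± 0.549 RPKM (SD, n = 2 each). The groups lay well apart, and the Naa10-KO libraries differed from each other by only 0.02 on the log2 scale. The log2 difference was 0.48 (SE 0.07, 95% interval 0.28 to 0.68), at an unadjusted limma p of 0.00288 and an adjusted p of 0.101. A larger absolute difference was seen in 17.5% of all tested rows. In Naa10-KO replicate 1, where the summed fibroblast markers were above WT, Atf7ip was 0.49 above the WT mean. In replicate 2, where that sum was below WT, Atf7ip was 0.47 above. The part of these markers in the Atf7ip difference was not tested.

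Its catalytic partner gene Setdb1, outside the 10, lay on the other side of WT, with 22.4 and 20.9 RPKM in the WT pair against 17.4 and 15.0 RPKM in the Naa10-KO pair. Both Naa10-KO libraries were below both WT libraries, with a log2 difference of -0.40 (SE 0.11, limma adjusted p = 0.172). Atf7ip was therefore the more abundant of the pair per length in all 4 libraries. Atf7ip2, a relative of Atf7ip, had 4.89 and 5.35 RPKM in the WT pair against 5.56 and 3.41 RPKM in the Naa10-KO pair (adjusted p = 0.657), and was named for its kinship after its values were seen.

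Among the HP1 genes, Cbx1 (HP1 beta) was highest. It had 141 and 146 RPKM in the WT pair against 113 and 121 RPKM in the Naa10-KO pair, or 143 ± 4.03 against 117 ± 5.49 RPKM (SD, n = 2 each). All Naa10-KO values were below all WT values, and the gap was wider than the spread within either pair. The log2 difference was -0.29 (SE 0.07, 95% interval -0.49 to -0.09, limma unadjusted p = 0.0167, adjusted p = 0.153).

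Cbx3 (HP1 gamma), which is also found on transcribed gene bodies, had 110 and 136 RPKM in the WT pair against 100.3 and 93.1 RPKM in the Naa10-KO pair. The groups did not overlap, but the WT libraries differed from each other by 0.30 on the log2 scale, nearly as much as the groups did. The log2 difference was -0.33 (SE 0.13, 95% interval -0.70 to 0.03, limma adjusted p = 0.249). RefSeq lists 6 loci named as Cbx3 pseudogenes, so reads from Cbx3 can be hard to assign, and its value is uncertain to that extent.

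Cbx5 (HP1 alpha), the form most concentrated at pericentromeric heterochromatin, had 35.6 and 36.2 RPKM in the WT pair against 35.0 and 30.6 RPKM in the Naa10-KO pair. Naa10-KO replicate 1 lay just under WT and replicate 2 further below, with differences from the WT mean of -0.03 and -0.22. The fitted log2 difference was -0.13 (95% interval -0.40 to 0.15, limma adjusted p = 0.480). With the libraries scaled to a common median, Cbx5 no longer lay below WT in both Naa10-KO libraries, while Cbx1 and Cbx3 still did.

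Summed over the 3 HP1 genes, the level was 286 and 318 RPKM in the WT pair against 249 and 245 RPKM in the Naa10-KO pair. The make-up of that sum was alike across libraries. Cbx1 made up between 45.5% and 49.4% of it, Cbx3 between 38.0% and 42.7%, and Cbx5 between 11.4% and 14.1%, and the ranges of the genotypes overlapped for Cbx1 and Cbx3. For Cbx5 they did not, with 11.4% and 12.5% in WT and 12.5% and 14.1% in Naa10-KO, though the nearest values were almost equal.

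Hells, the gene of the SNF2-family remodeller LSH, had 105 and 110 RPKM in the WT pair against 86.9 and 75.8 RPKM in the Naa10-KO pair. Every Naa10-KO value was below every WT value, at 107 ± 3.68 against 81.3 ± 7.85 RPKM (SD, n = 2 each). The log2 difference was -0.40 (SE 0.10, 95% interval -0.67 to -0.13, limma unadjusted p = 0.0152, adjusted p = 0.150). Cdca7, which encodes the zinc finger partner that brings Hells to nucleosomes, had 51.8 and 53.2 RPKM in the WT pair against 45.2 and 51.0 RPKM in the Naa10-KO pair (log2 difference -0.12, adjusted p = 0.464).

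Hells is known to be expressed in proliferating cells, and a list of S-phase genes was read beside it. Of its 14 tested rows, 3 lay above WT in both Naa10-KO libraries (Mcm2, Mcm7 and Cdt1) and 4 below (Mcm4, Pcna, Ccne1 and Gins2). Over all tested rows, the shares were 24.4% above and 34.9% below. The S-phase rows had a median log2 difference of -0.04. Of them 0 passed the threshold (lowest limma adjusted p 0.134), against 0.764% of all tested rows. Set against the WT mean, the median of the S-phase rows came to -0.16 and 0.06 for Naa10-KO replicates 1 and 2. Hells was at -0.30 and -0.50. Of the rows above WT, Cdt1 had a log2 difference of 0.48, Mcm2 0.10 and Mcm7 0.05 (limma adjusted p = 0.137, 0.416 and 0.635). Of those below, Ccne1, the cyclin E1 gene, had -0.29 and Pcna, the sliding clamp gene, -0.20 (limma adjusted p = 0.134 and 0.235). Gins2 had -0.27 and Mcm4 -0.11 (limma adjusted p = 0.362 and 0.505). The part of these genes' programme in the Hells difference was not tested.

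Morc3 encodes a nuclear-body ATPase that binds histone H3 and helps to silence endogenous retroviruses. It had 31.7 and 31.4 RPKM in the WT pair against 21.3 and 25.0 RPKM in the Naa10-KO pair, or 31.6 ± 0.178 against 23.2 ± 2.59 RPKM (SD, n = 2 each). The WT libraries were nearly equal and both Naa10-KO libraries were well below them. The log2 difference was -0.43 (SE 0.11, 95% interval -0.74 to -0.13, limma unadjusted p = 0.0165, adjusted p = 0.153), and 21.2% of tested rows had a larger absolute difference. Naa10-KO replicates 1 and 2 lay at -0.54 and -0.32 against the WT mean. Cbx1, Cbx3, Cbx5, Hells and Morc3 were below WT in both Naa10-KO libraries, as were 34.9% of all tested rows. The summed fibroblast markers were above WT in replicate 1 and below it in replicate 2. The median of the ESC markers was below WT in replicate 1 and above it in replicate 2. Of the ESC markers, Dppa5a was below WT in both Naa10-KO libraries, and Pou5f1 and Tdgf1 were above it in both. The part of either list in the differences of the members was not tested.

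**Figure D2:**
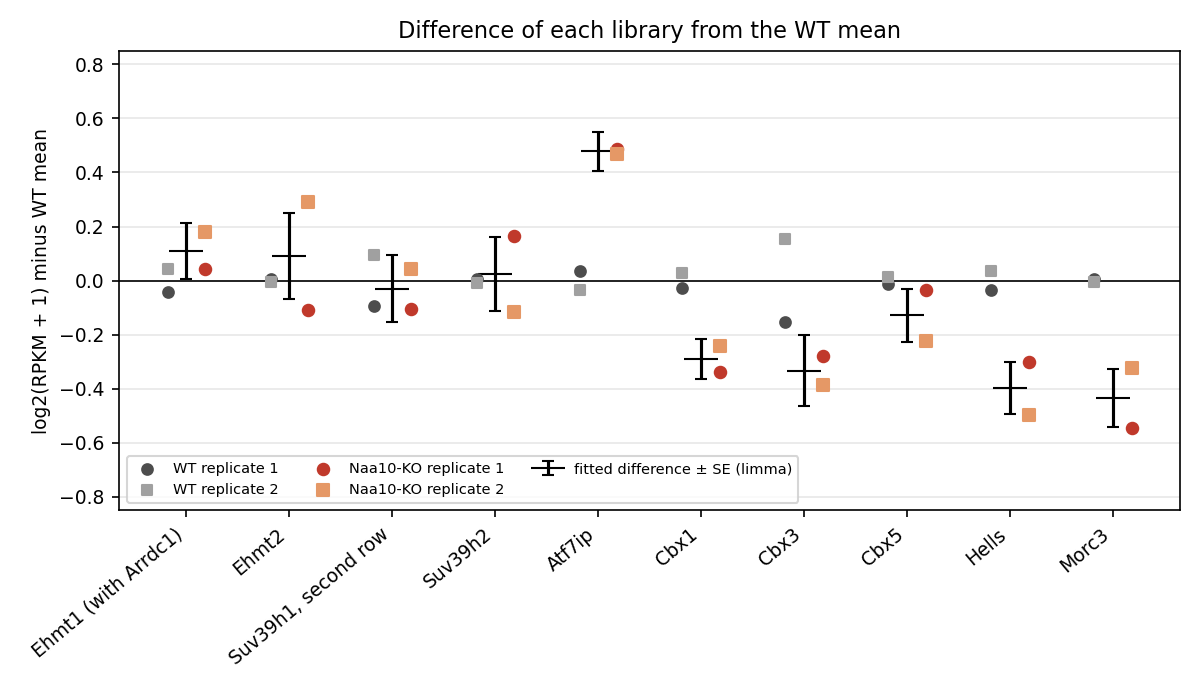
Difference of each library from the WT mean on the log2(RPKM + 1) scale for 10 rows, leaving out the Suv39h1 row listed at 0; black bars are the fitted limma difference ± SE. The 2 Naa10-KO libraries agree closely for Atf7ip (0.49 and 0.47), lie below both WT libraries for Cbx1, Cbx3, Cbx5, Hells and Morc3, and lie on opposite sides of WT for Ehmt2 and Suv39h2.

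Counted by side, 2 of the 11 rows had both Naa10-KO libraries above WT (the Ehmt1 row and Atf7ip) and 5 had both below (Cbx1, Cbx3, Cbx5, Hells and Morc3). Over all tested rows, 24.4% lay above and 34.9% below, 59.3% together, so the 7 of 11 rows stand near the background. Taken one library at a time, Naa10-KO replicate 1 was outside the WT range in 10 rows, 3 above and 7 below, as were 92.9% of all tested rows (38.3% above, 54.6% below). Replicate 2 was outside it in 9 rows, 3 above and 6 below, against 90.1% of all tested rows (41.8% above, 48.3% below). An unadjusted limma p under 0.05 was reached by 4 rows, Atf7ip, Hells, Morc3 and Cbx1, against 22.1% of all tested rows. The median log2 difference of the members was -0.03, or -0.08 without the Suv39h1 row listed at 0, and that of all tested rows was -0.06. Neither the counts nor the median of the set stood far from those of all tested rows.

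The order of the levels was nearly the same in both genotypes. In WT it ran from Cbx1 through Cbx3, Hells, Ehmt2, Atf7ip, Cbx5, Morc3, the Ehmt1 row and the second Suv39h1 row to Suv39h2 (143, 123, 107, 53.0, 44.0, 35.9, 31.6, 13.5, 12.2 and 10.3 RPKM on average). Cbx1 was above 94.7% of tested rows in WT and Suv39h2 above 50.4%. Only Cbx3 and Hells overlapped between neighbours in WT. In Naa10-KO, Atf7ip stood above Ehmt2 on average (61.6 and 57.0 RPKM), but their libraries overlapped, as did those of the second Suv39h1 row and Suv39h2.

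Ratios between related genes were taken within each library. On the log2 scale with 1 added to each RPKM, Cbx1 over Cbx5 was 1.952 and 1.985 in WT and 1.665 and 1.947 in Naa10-KO, so that Naa10-KO replicate 2 was level with WT replicate 1 and the difference came from Naa10-KO replicate 1. Cbx3 over Cbx5 was 1.596 and 1.877 in WT and 1.492 and 1.572 in Naa10-KO. Here Naa10-KO replicate 2 lay just under WT replicate 1, and the WT libraries lay further apart than the Naa10-KO libraries. The mean differences of these ratios were -0.16 and -0.20, and for each the exact two-sided permutation test gave p = 0.333 (0.833 with Benjamini-Hochberg adjustment over 5 ratios), the smallest that 2 against 2 libraries allow. The ratios of Cbx1 to Cbx3, of the Ehmt1 row to Ehmt2 and of the second Suv39h1 row to Suv39h2 overlapped between the genotypes, with differences of 0.04, 0.02 and -0.05.

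**Figure D3:**
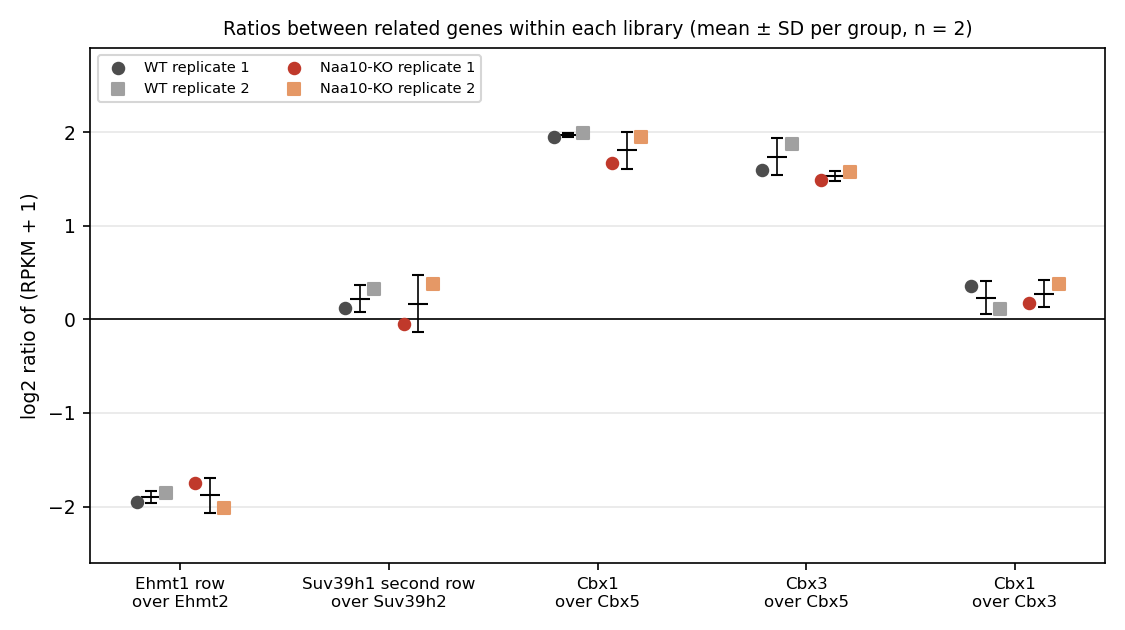
Log2 ratios of (RPKM + 1) between related genes within each library, with black bars for the mean ± SD of each group (n = 2). Cbx3 over Cbx5 is lower in both Naa10-KO libraries (mean difference -0.20), but replicate 2 (1.572) lies just under the lower WT library (1.596). Cbx1 over Cbx5 is clearly lower only in Naa10-KO replicate 1 (1.665, against 1.947 in replicate 2 and 1.952 in the lower WT library). The other 3 ratios overlap.

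Around these members, 8 lists of related genes were read from the same fit. Of their 45 tested rows, 0 passed the threshold (lowest limma adjusted p 0.114), 8 had an unadjusted p under 0.05, 8 had both Naa10-KO libraries above WT and 15 had both below. That is 51.1% of rows not overlapping, against 59.3% of all tested rows, and the median log2 difference was -0.07. Of all tested rows, 22.1% had an unadjusted limma p under 0.05. In both Naa10-KO libraries, 24.4% of all tested rows lay above WT and 34.9% below, the shares to set beside the counts of each list that follow.

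Among other H3K9 methyltransferases and their cofactors, 6 rows were tested, of which 2 lay above and 3 below WT in both Naa10-KO libraries (median -0.19). Wiz, a zinc finger protein that docks on the Ehmt1 and Ehmt2 dimer, had 19.7 and 19.6 RPKM in the WT pair against 29.1 and 27.2 RPKM in the Naa10-KO pair. The WT values were nearly equal and the Naa10-KO values were higher, with a log2 difference of 0.50 (SE 0.08, limma adjusted p = 0.114). Setdb1, described above with Atf7ip, was among the 3 that were lower.

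In the list of KAP1, HUSH and chromatin assembly genes, 1 of 8 rows lay above and 3 below WT in both Naa10-KO libraries (median -0.08). Trim28 (KAP1), the corepressor that recruits Setdb1, had 656 and 691 RPKM in the WT pair against 775 and 763 RPKM in the Naa10-KO pair (log2 difference 0.19, limma adjusted p = 0.214). Mphosph8, the chromodomain subunit of HUSH, had 33.5 and 34.8 RPKM in the WT pair against 25.9 and 21.8 RPKM in the Naa10-KO pair (log2 difference -0.51, adjusted p = 0.141). Chaf1a, a histone chaperone subunit that binds HP1, had 37.9 and 37.6 RPKM in the WT pair against 33.8 and 26.5 RPKM in the Naa10-KO pair (adjusted p = 0.272). Setdb1, Mphosph8 and Chaf1a were thus below WT in both Naa10-KO libraries, and Trim28 above.

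Among the H3K9 demethylases, 2 of 9 rows were above and 3 below WT in both Naa10-KO libraries (median 0.03). Kdm1a, the LSD1 demethylase, had 67.3 and 67.3 RPKM in the WT pair against 58.2 and 65.5 RPKM in the Naa10-KO pair (limma adjusted p = 0.459). Kdm3a had a log2 difference of 0.03 (adjusted p = 0.846), Kdm4b 0.07 (adjusted p = 0.836) and Kdm4c -0.10 (adjusted p = 0.510); all 3 encode Jumonji demethylases.

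For the deposition of histone H3.3, Daxx had 25.0 and 25.6 RPKM in the WT pair against 29.3 and 28.2 RPKM in the Naa10-KO pair (log2 difference 0.18, limma adjusted p = 0.281). Its partner Atrx, an X-linked remodeller, had 42.8 and 43.8 RPKM in WT, 48.9 RPKM in Naa10-KO replicate 1 and 32.8 RPKM in replicate 2, on opposite sides of WT. Of the 4 rows of that list, 1 lay above and 0 below WT in both Naa10-KO libraries (median 0.02). Of 3 rows of H4K20 methyltransferases, 0 lay above and 2 below (median -0.23).

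Of 10 rows of heterochromatin partners and lamina genes, 1 lay above and 4 below WT in both Naa10-KO libraries (median -0.10). Lbr, the inner nuclear membrane receptor that binds HP1, had 42.9 and 41.8 RPKM in the WT pair against 34.0 and 41.8 RPKM in the Naa10-KO pair (limma adjusted p = 0.482). For Lmnb1, a lamin gene, the log2 difference was 0.04 (adjusted p = 0.762). The row of Adnp, a zinc finger protein that binds HP1, was joined with Dpm1 and had 56.9 and 46.3 RPKM in the WT pair against 42.0 and 45.4 RPKM in the Naa10-KO pair (adjusted p = 0.372). Neither tested row of the other MORC genes lay on 1 side of WT in both Naa10-KO libraries (median -0.10). The Polycomb CBX genes, whose chromodomains read H3K27 methylation, had 3 tested rows with a median of 0.18, 1 above WT in both Naa10-KO libraries and 0 below.

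**Figure D4:**
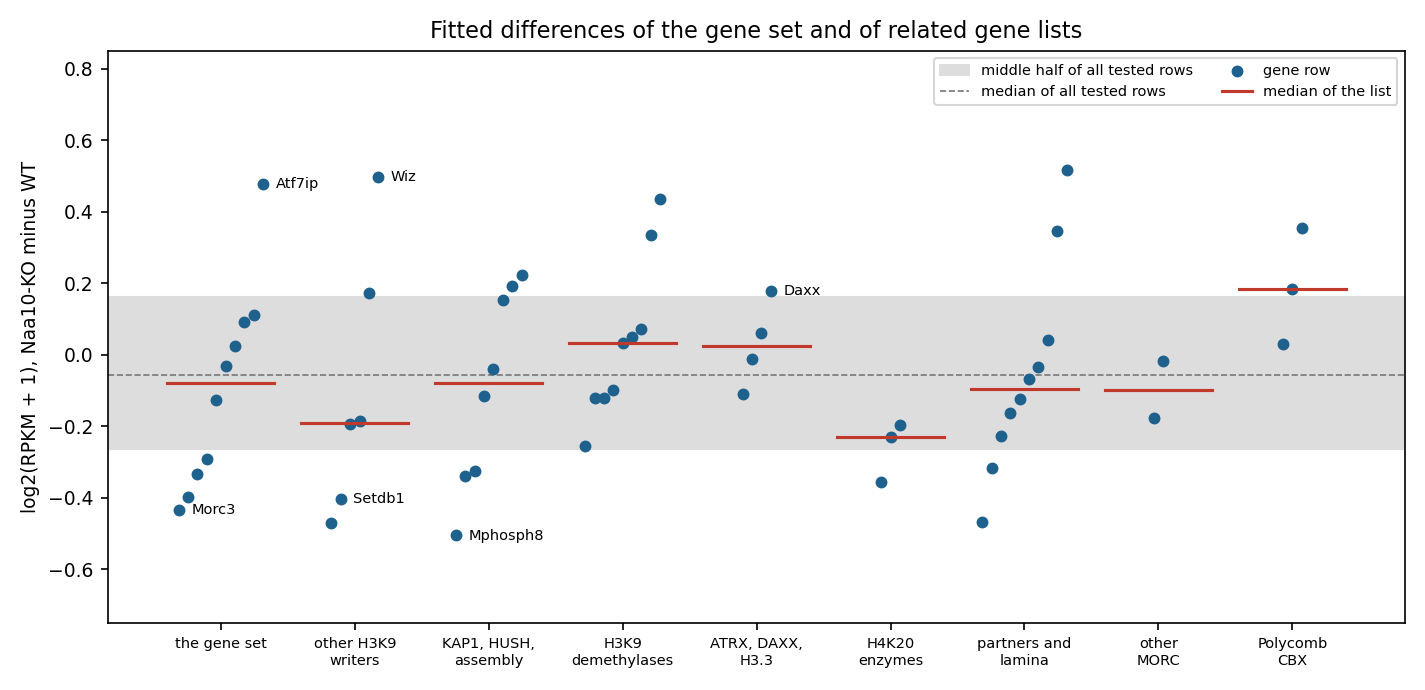
Fitted log2 difference, Naa10-KO minus WT, of each tested row of the gene set and of 8 related lists; red lines are list medians, the grey band runs between the lower and upper quartiles of all tested rows (-0.27 to 0.16) and the dashed line their median. Atf7ip and Wiz lie above the band and Morc3, Setdb1 and Mphosph8 below it. So do unlabelled rows such as Lmna (0.52) above and Prdm2 and Senp7 (both -0.47) below, which were picked out after their values were seen. Lmna was above both WT libraries only in Naa10-KO replicate 1 (50.4 RPKM, against 24.7 RPKM in replicate 2). No row shown passed the threshold, and the Suv39h1 row listed at 0 is left out.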

How the data were processed

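Poly-dT selected RNA was broken into fragments of about 200 bp and sequenced on an Illumina HiSeq 2000, per the labels' protocols. The authors deposited 1 table of RPKM values per library, per the file headers. The submitters' processing notes name the mm9 build, Cufflinks and bedtools; the sources used here do not give the aligner, annotation or strand handling. Rows were kept as deposited, joined symbols included, and repeated symbols were paired across tables by row order, which was the same in all 4.

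Differences were tested with limma 3.58.1 (R 4.3.3) on log2(RPKM + 1), two-sided, with a mean-variance trend and Benjamini-Hochberg adjustment, over the 11912 rows that reached 1 RPKM in 2 or more libraries; Python 3.11.15 and pandas 2.3.3 read the tables. Fold changes on this scale understate changes of low genes. Residual degrees of freedom were 2, with 1.94 more from the prior. The fit was tested on simulated data. Promoters came from RefSeq (all 10 members matched). The members and gene lists were chosen with earlier results of these data known. The text names the 10 members, Naa10 and 15 related genes by rule (Setdb1, Trim28, Wiz, Chaf1a, Mphosph8, Kdm1a, Kdm3a, Kdm4b, Kdm4c, Atrx, Daxx, Lbr, Lmnb1, Adnp and Cdca7), with any other related gene that passed the threshold. Alternatives changed the pseudocount, filters, scaling, trend, replicate block and libraries.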

Additional observations from a re-analysis of the deposited data

How the results depend on the processing

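Over all tested rows, 91 passed the threshold, against 40 with no filter on low values and 0 without the rows of small RNAs and those holding a 0 (smallest limma adjusted p 0.0593, 2625 rows at an unadjusted p under 0.05). The replicate number as a block gave 44 calls over all rows and 0 among the members. Same-numbered libraries did not deviate together (correlation -0.215), and the crossed pairing, added after seeing the data, gave 133 calls and 0 among the members. Leaving out single libraries rests on the assumption that the remaining library varies as the intact pair does, and gave 12 and 15 calls over all rows without WT replicate 1 and 2, 4938 and 7081 without Naa10-KO replicate 1 and 2, and 0 to 6 among the members. The 6 without Naa10-KO replicate 1 were Ehmt2, Cbx1, Cbx5, Hells, Atf7ip and Morc3, and the 4 without replicate 2 were Cbx1, Hells, Atf7ip and Morc3; without either WT library there were 0. With all libraries kept, 0 members passed under any of the 9 alternatives run, and Atf7ip ranged from 0.48 to 0.54 (limma adjusted p 0.0875 to 0.256).

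The directions of Atf7ip, Cbx1, Cbx3, Cbx5, Hells, Morc3 and the Ehmt1 row held in every alternative run. The second Suv39h1 row turned to 0.034 with a common median, and ranged from -0.13 to 0.064 with single libraries left out (0.043 without Naa10-KO replicate 1). For the first Suv39h1 row the fitted difference is set by the 0 in WT replicate 2 and by the pseudocount, and is neither a fold nor a bound: it was 1.10, or 2.61 with a pseudocount of 0.1, 2.39 without WT replicate 1 and -0.18 without WT replicate 2. Suv39h2 ranged from -0.12 without Naa10-KO replicate 1 to 0.16 without replicate 2, and Ehmt2 from -0.11 without replicate 2 to 0.29 without replicate 1. The absolute depth is not known, so counting error cannot be given.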
